A study of Saccharomyces cerevisiae with 4 samples.

Results

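The proteasome is the protease complex that degrades proteins marked with ubiquitin. Its genes were followed in budding yeast, Saccharomyces cerevisiae, exposed to rapamycin. The set holds 36 of the 6176 genes on the arrays and was chosen by name. It takes in PRE1 to PRE10, PUP1 to PUP3 and SCL1 of the core particle, RPN1 to RPN3 and RPN5 to RPN13 and RPT1 to RPT6 of the regulatory particle, the transcription factor gene RPN4, the proteasome-binding factors ECM29 and BLM10, and the polyubiquitin gene UBI4. The rule goes by name and uses no measured value.

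The 2 strains were a ptc1 mutant, named for the gene of the type 2C protein phosphatase Ptc1, and a wild type. Both grew in rich medium at 28 °C. At an A660 of 0.5, in log phase, they received 200 ng/ml rapamycin for 1 h or the mock vehicle of ethanol and Tween-20. Neither the ptc1 allele nor the strain background is given in the sources used here. Each of 4 two-colour arrays, 2 per strain, set treated against mock-treated cells within a strain, and by the study's design text each RNA sample was dye-swapped, so both arrays of a strain hold the same treated and the same mock RNA. The titles of the ptc1 arrays and their dye fields name opposite dyes, while each strain mean holds both orientations.

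Values are log ratios taken as log2 and read as rapamycin over mock, although the deposited table states neither base nor direction. GAP1, a nitrogen-repressed permease gene known to respond to rapamycin with higher expression, had ratios between 4.28 and 5.67 on all 4 arrays. PTC1 itself had no value on either ptc1 array and 0.003 and −0.525 on the wild-type arrays. The ± of a strain mean is the SD of its 2 arrays. By that design it carries technical spread alone, and a strain is 1 sample, which allows no test. A gene rose or fell, in the sense used here, if both arrays of a strain measured it, with like signs, and if its mean reached 1 in size, which is 2-fold. Ratios are relative to the other genes on an array, so a change in the total RNA of a cell is not seen in them.

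The core particle is a barrel of stacked rings, with outer rings of alpha subunits that gate the channel and inner rings of beta subunits, some of which carry the protease sites. The regulatory particle sits on its end. Its base unfolds substrates with a ring of ATPases, and its lid removes the ubiquitin chain. In yeast the factor Rpn4 activates most proteasome genes together and is itself a short-lived proteasome substrate. Rapamycin inhibits TORC1, the kinase complex that promotes growth, and TORC1 inhibition is known to raise protein breakdown by the vacuole and to act on proteasome assembly.

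Relative to the array as a whole, most proteasome mRNAs had means close to their mock levels in both strains. In ptc1 29 of the 32 members measured on both arrays had a mean within 1.5-fold of mock (90.6%), where 57.2% of all genes did. In the wild type the count was again 29 of 32, where 49.9% of all genes did. This way of counting was chosen after the values were seen. A mean of 2 arrays with opposite signs can lie near 0 though each value does not. On single arrays the count was 25 of 32 on ptc1 array 1 and 27 of 34 on ptc1 array 2. It was 28 of 32 on wild-type array 1 and 30 of 33 on wild-type array 2. The share of all genes on single arrays was not counted. The member median was 0.144 in ptc1 and 0.0365 in the wild type, against 0.078 in ptc1 and 0.069 in the wild type for all genes. With each array centred on its median the member medians were 0.096 in ptc1 and −0.027 in the wild type. Centring thus turned the sign of the wild-type median, which was not settled. Without wild-type array 1 the wild-type median was 0.047, and without wild-type array 2 it was 0.1055. The middle 50% of members spanned 0.231 in ptc1 and 0.382 in the wild type, against 0.974 in ptc1 and 1.15 in the wild type for all genes. UBI4 was the only member to rise and SCL1 the only one to fall, in each strain. In ptc1 10.6% of all genes rose and 12.4% fell, and in the wild type 13.8% rose and 15% fell. At a lower limit of 1.5-fold PRE3 joined SCL1 among the lower members of each strain, and UBI4 was still the only higher one. At this limit 22.2% of all genes rose and 20.3% fell in ptc1, and 26.4% rose and 23.7% fell in the wild type.

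**Figure D1:**
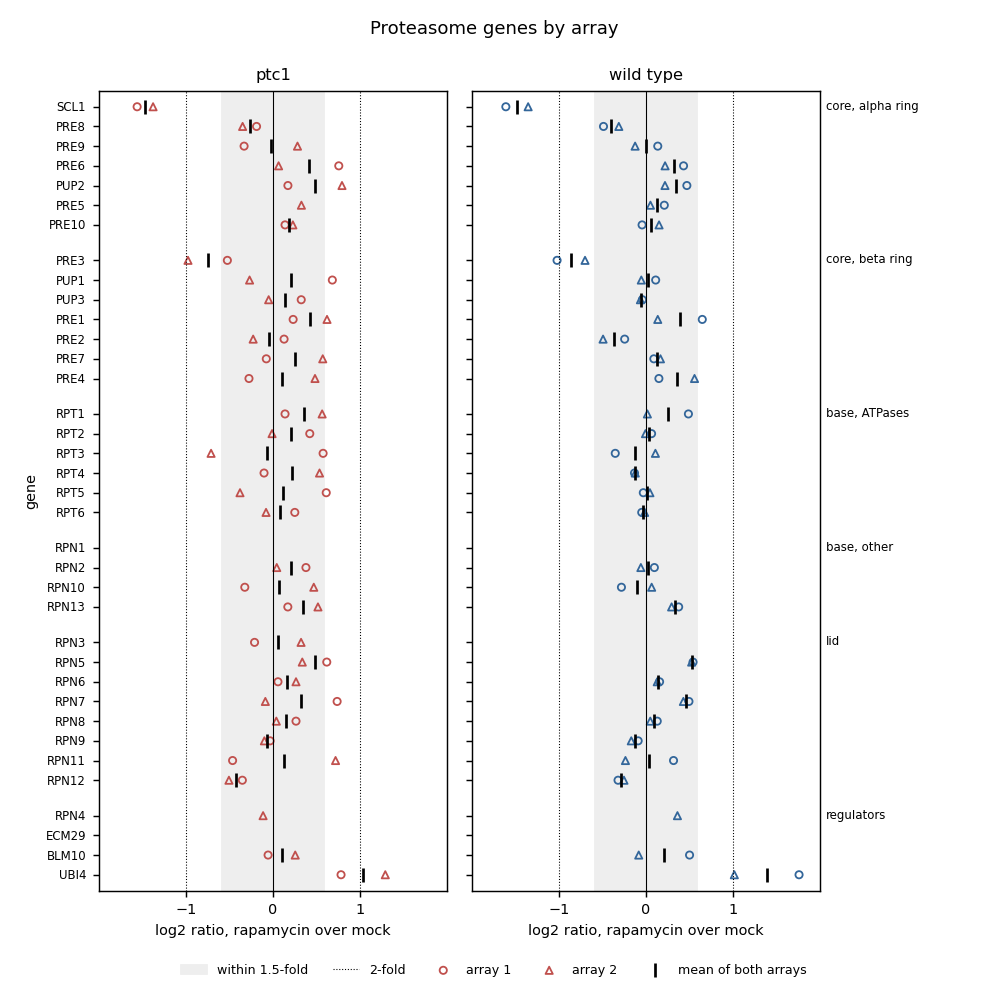
Log2 ratio of rapamycin over mock for each of the 36 proteasome genes on the 2 ptc1 arrays (left) and the 2 wild-type arrays (right), grouped by role. Circles and triangles are arrays 1 and 2, black bars their mean, grey the range within 1.5-fold and dotted lines 2-fold. SCL1 and PRE3 lie to the left of the other members and UBI4 to the right in both strains, and RPN1 and ECM29 have no point.

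**Figure D2:**
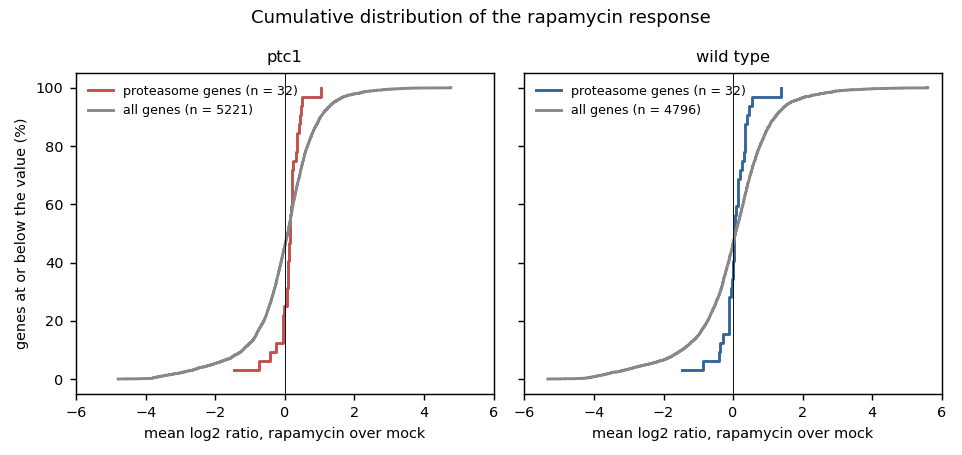
Cumulative share of genes (%) at or below a mean log2 ratio of rapamycin over mock, for ptc1 (left, 32 proteasome genes and 5221 genes in all) and the wild type (right, 32 and 4796). The proteasome curves climb steeply near 0, and 29 of 32 members lie within 1.5-fold in each strain.

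Of the 36 members 31 had a value on all 4 arrays, 3 on some arrays and 2 on none. RPN1 (YHR027C), whose product is the scaffold at which ubiquitin receptors dock, and ECM29 (YHL030W), whose product tethers core and regulatory particle, had no value. PRE5 (YMR314W), an alpha subunit gene, lacked a value on ptc1 array 1 and read 0.326 on ptc1 array 2, against 0.212 and 0.053 in the wild type. RPN3 (YER021W), a lid subunit gene, was measured in ptc1 alone, at −0.212 and 0.322. RPN4 (YDL020C) was read on 1 array of each strain, at −0.114 on ptc1 array 2 and 0.363 on wild-type array 2, and was not called. BLM10 (YFL007W), whose product caps the core particle in place of the regulatory particle, had 2 rows, which were averaged. The row YFL007W read −0.102 and 0.188 in ptc1 and 0.7 and −0.257 in the wild type, and the row YFL006W −0.011 and 0.322 in ptc1 and 0.304 and 0.094 in the wild type. Both arrays of a strain differed in sign in the row YFL007W, and the gene mean was 0.099 ± 0.22 in ptc1 and 0.21 ± 0.41 in the wild type.

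SCL1 (YGL011C), which encodes an alpha ring subunit, was the member with the deepest fall. Its log2 ratios were −1.56 and −1.38 on the ptc1 arrays, against −1.61 and −1.35 on the wild-type arrays. The mean was −1.47 ± 0.13 in ptc1 and −1.48 ± 0.18 in the wild type, which is 2.77-fold lower than mock in ptc1 and 2.79-fold in the wild type. All 4 values were past 2-fold and the strains overlapped, with a difference of 0.01 ± 0.22.

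The other alpha ring genes had means of −0.27 to 0.48 in ptc1 and −0.40 to 0.35 in the wild type. PRE8 (YML092C) was the next lowest, at −0.189 and −0.349 in ptc1 and −0.486 and −0.31 in the wild type. PUP2 (YGR253C) was the highest, at 0.171 and 0.792 in ptc1 and 0.471 and 0.22 in the wild type. PRE6 (YOL038W) followed, with a mean of 0.41 ± 0.49 in ptc1 and 0.33 ± 0.15 in the wild type. PRE9 (YGR135W), the alpha subunit gene that yeast can live without, stood at −0.026 ± 0.43 in ptc1 and 0.007 ± 0.18 in the wild type. PRE10 (YOR362C) stood at 0.18 ± 0.064 in ptc1 and 0.054 ± 0.14 in the wild type. Each of these members other than SCL1 had a mean within 1.5-fold of mock wherever both arrays measured it. On a single array PUP2 (0.792 on ptc1 array 2) and PRE6 (0.755 on ptc1 array 1) were past 1.5-fold.

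In the beta ring PRE3 (YJL001W), whose product carries the caspase-like protease site, had the lowest values. They were −0.524 and −0.976 in ptc1 and −1.02 and −0.698 in the wild type. The mean was −0.75 ± 0.32 in ptc1 and −0.86 ± 0.23 in the wild type. PRE3 was the member nearest to 2-fold among those that did not pass it, and of its 4 values that on wild-type array 1 alone was past 2-fold. All 4 were negative and the strains overlapped.

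The other genes of protease sites did not share the low value of PRE3. PRE2 (YPR103W), of the chymotrypsin-like site, read 0.127 and −0.228 in ptc1 and −0.243 and −0.491 in the wild type. Both ptc1 values lay above both wild-type values, by 0.32 ± 0.31 in the means. PUP1 (YOR157C), of the trypsin-like site, read 0.681 and −0.269 in ptc1 and 0.113 and −0.052 in the wild type. Its arrays disagreed in sign in both strains.

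The beta subunits without a protease site were close to mock as well. PRE1 (YER012W) had the highest mean of the ring, 0.43 ± 0.28 in ptc1 and 0.39 ± 0.36 in the wild type. PRE4 (YFR050C) stood at 0.10 ± 0.54 in ptc1 and 0.35 ± 0.29 in the wild type, PRE7 (YBL041W) at 0.25 ± 0.46 in ptc1 and 0.13 ± 0.054 in the wild type, and PUP3 (YER094C) at 0.14 ± 0.26 in ptc1 and −0.050 ± 0.016 in the wild type. Ring medians were 0.079 in ptc1 and 0.054 in the wild type for the alpha ring, and 0.137 in ptc1 and 0.030 in the wild type for the beta ring.

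The 6 ATPase genes of the base, RPT1 to RPT6, had the narrowest range of means in the wild type among the groups with more than 3 measured members. They ran from −0.13 for RPT4 to 0.25 for RPT1 (YKL145W) there, with a median of −0.011. In ptc1 they ran from −0.068 for RPT3 to 0.35 for RPT1, with a median of 0.16. RPT1 was the highest in both strains, with 0.138 and 0.564 on the ptc1 arrays and 0.489 and 0.018 on the wild-type arrays. RPT5 (YOR117W) read 0.611 and −0.379 in ptc1 and −0.029 and 0.047 in the wild type, and RPT6 (YGL048C) 0.25 and −0.08 in ptc1 and −0.047 and −0.014 in the wild type. The wild-type arrays of RPT5 and RPT6 were closer to each other than their ptc1 arrays.

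RPT3 (YDR394W) showed the largest disagreement between arrays of any member. It read 0.575 and −0.711 in ptc1, an SD of 0.91, against −0.351 and 0.11 in the wild type. RPT4 (YOR259C) read −0.103 and 0.534 in ptc1 and −0.13 and −0.121 in the wild type, so both ptc1 values were above both wild-type values. RPT2 (YDL007W) lies next to PTC1 on chromosome IV. It read 0.422 and −0.011 in ptc1 and 0.066 and −0.004 in the wild type, and the strains overlapped.

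Among the other base genes RPN2 (YIL075C), the partner scaffold of RPN1, stood at 0.21 ± 0.24 in ptc1 and 0.020 ± 0.11 in the wild type. The ubiquitin receptor gene RPN10 (YHR200W) read −0.324 and 0.468 in ptc1 and −0.28 and 0.067 in the wild type. RPN13 (YLR421C), the gene of another ubiquitin receptor, was positive on every array, at 0.17 and 0.516 in ptc1 and 0.377 and 0.296 in the wild type. None of the 3 measured genes passed 1.5-fold in the mean.

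The lid genes spread from −0.43 to 0.48 in ptc1 and from −0.29 to 0.53 in the wild type. RPN5 (YDL147W), a lid subunit gene, was the highest, at 0.617 and 0.336 in ptc1 and 0.542 and 0.526 in the wild type. RPN12 (YFR052W), the subunit that joins the lid last in its assembly, was the lowest, at −0.352 and −0.506 in ptc1 and −0.319 and −0.251 in the wild type. Each kept 1 sign on all 4 arrays.

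RPN7 (YPR108W) followed RPN5, with 0.736 and −0.088 in ptc1 and 0.495 and 0.431 in the wild type. RPN11 (YFR004W), whose product is the enzyme that cuts ubiquitin chains off substrates, read −0.464 and 0.718 in ptc1 and 0.318 and −0.234 in the wild type. Its arrays disagreed in sign in both strains and its means were 0.13 ± 0.84 in ptc1 and 0.042 ± 0.39 in the wild type. RPN8 (YOR261C), its partner in the lid, stood at 0.15 ± 0.16 in ptc1 and 0.091 ± 0.057 in the wild type. RPN6 (YDL097C), which clamps core to regulatory particle, stood at 0.16 ± 0.15 in ptc1 and 0.14 ± 0.019 in the wild type, and RPN9 (YDR427W), another lid subunit gene, at −0.066 ± 0.047 in ptc1 and −0.13 ± 0.056 in the wild type.

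UBI4 (YLL039C), a stress-induced gene that encodes a chain of fused ubiquitin units, was the member that rose. Its log2 ratios were 0.781 and 1.289 on the ptc1 arrays and 1.759 and 1.016 on the wild-type arrays. The mean was 1.03 ± 0.36 in ptc1 and 1.39 ± 0.53 in the wild type, or 2.05-fold higher than mock in ptc1 and 2.62-fold in the wild type. The strains overlapped, with a difference of −0.35 ± 0.64. The ptc1 mean was just past 2-fold, and with each array centred on its median it was 0.987 and no longer passed. On ptc1 array 1 alone the value was 0.781.

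The other 3 ubiquitin genes, which encode ubiquitin fused to a ribosomal protein, had all fallen. RPS31 had a mean of −3.68 ± 0.22 in ptc1 and −4.32 ± 0.36 in the wild type. RPL40A had a mean of −3.08 ± 0.016 in ptc1 and −3.61 ± 0.20 in the wild type, and RPL40B of −2.72 ± 0.63 in ptc1 and −2.89 ± 0.34 in the wild type. RPL40A and RPL40B are near-identical in their coding sequence, and all 4 genes share the ubiquitin sequence. An array may not separate them, so the single values of these genes, UBI4 included, are uncertain. The probes are not described in the sources used here.

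The sign of the mean was counted by particle. In the core particle 8 of 13 measured members were above 0 in ptc1 and 9 of 14 in the wild type. In the regulatory particle 14 of 17 were above 0 in ptc1 and 10 of 16 in the wild type. Of all genes 54.2% were above 0 in ptc1 and 53.4% in the wild type. The arrays of a strain had opposite signs in 16 of 32 members in ptc1 and in 10 of 32 in the wild type, against 24.4% of all genes in ptc1 and 12.6% in the wild type. The median SD between the arrays of a member was 0.304 in ptc1 and 0.121 in the wild type, against 0.277 in ptc1 and 0.155 in the wild type for all genes. The mean was smaller than the SD of its arrays in 19 of 32 members in ptc1 and in 11 of 32 in the wild type, against 32.1% of all genes in ptc1 and 18.1% in the wild type.

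Pearson's r between the arrays of a strain was 0.327 in ptc1 and 0.861 in the wild type over the 31 members with all 4 values, genes being no replicates of one another. Without SCL1, PRE3 and UBI4, chosen after the values were seen as the 3 members farthest from 0, r was −0.373 in ptc1 and 0.548 in the wild type over 28 genes. Over all 4650 genes it was 0.869 in ptc1 and 0.958 in the wild type. Leaving out the members farthest from 0 narrows the range and can by itself lower r. All genes were not restricted in this way and spread more, so r over the members is not comparable with theirs. The order of the remaining members in ptc1 differed from array to array, although both arrays of a strain share their treated and mock RNA. Strain means over the 31 members correlated with r = 0.950, and over the 28 with r = 0.834. Each strain had its own mock RNA, so the strain means share no control sample. The difference between ptc1 arrays 2 and 1 and that between wild-type arrays 1 and 2 correlated with r = 0.296 over the members and 0.315 over all genes. This order of subtraction follows the dye fields. In the order that follows the titles r has the opposite sign, so whether the array disagreement ran in parallel in both strains is not settled. The share of the dyes in the array disagreement was not tested.

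The comparison of strains asked whether the response differs between ptc1 and the wild type. With 1 RNA pair per strain and the strain background not given, a difference or its absence cannot be assigned to Ptc1. A member counted as differing if the strain means were 2-fold or more apart and both ptc1 values lay on the same side of both wild-type values. None of the 31 members did, against 0.989% of all genes that were higher and 0.925% that were lower in ptc1. At 1.5-fold the count of members was again 0, against 4.99% higher and 4.28% lower of all genes. Differences ran from −0.35 for UBI4 to 0.34 for RPT4, so all 31 were within 1.5-fold, as were 89.9% of all genes.

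Small positive differences were frequent among the members. The difference was above 0 in 24 of 31 members, where 49.5% of all genes were above 0, and the member median was 0.085 against −0.004 for all genes. Over the 4 pairs of a ptc1 and a wild-type array the member median ran from −0.011 to 0.094, and that of all genes from −0.038 to 0.059. The differences were above 0 in all 6 ATPase genes (0.052 to 0.341), in 6 of 7 beta ring genes, in 5 of 6 alpha ring genes and in 4 of 7 lid genes. By particle they were above 0 in 11 of 13 core and 13 of 16 regulatory particle genes. The median spread of a member's difference was 0.449, larger than any of the 31 differences. With arrays matched across strains by dye, chosen after the values were seen, it was 0.315 by the dyes of the titles and 0.262 by the dye fields, against 0.362 and 0.258 for all genes. So matched, both differences of a member had the same sign in 8 of 31 members by the titles and in 7 of 31 by the dye fields, against 44.0% and 55.2% of all genes. The values of all 4 pairs had the same sign in 3 of 31 members, against 34.7% of all genes. These were PRE2 (0.32 ± 0.31) and RPT4 (0.34 ± 0.45), higher in ptc1, and RPN12 (−0.14 ± 0.12), lower in ptc1.

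**Figure D3:**
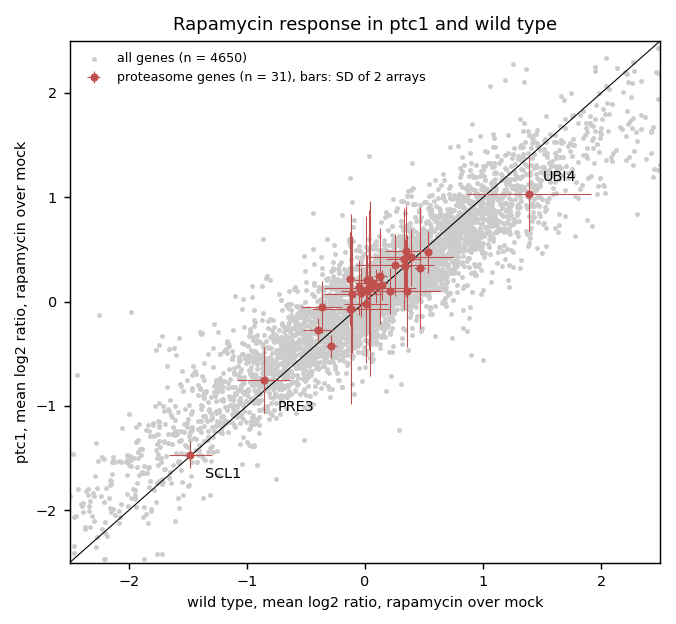
Mean log2 ratio of rapamycin over mock in ptc1 (vertical axis) against the wild type (horizontal axis) for 31 proteasome genes (points, bars the SD of 2 arrays) and 4650 genes in all (grey), with the line of equal response. The axes stop at 2.5 in size and leave out 335 of the genes. The proteasome genes cluster near the origin apart from SCL1, PRE3 and UBI4, which lie near the line.

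The position of the members on the chromosomes was compared through the R64 gene table, with strands read from the systematic names. Of the 36 members 22 start next to a gene transcribed the other way, so that both share the stretch between their starts. Of these neighbours 17 were measured on both arrays in ptc1 and 15 in the wild type. At −1 or below stood 4 of 17 in ptc1 and 3 of 15 in the wild type, and at 1 or above 1 of 17 and 1 of 15. Of all genes 12.4% fell and 10.6% rose in ptc1, and 15% fell and 13.8% rose in the wild type. Every such neighbour with a mean of at least 1 in size is named here. PRE2 starts beside RPL11A, a ribosomal protein gene that fell, with means of −3.34 in ptc1 and −3.84 in the wild type. RPN5 starts beside NOP14, a gene for making the small ribosomal subunit, which fell, with −2.91 in ptc1 and −3.63 in the wild type. PRE2 and RPN5 had means within 1.5-fold of mock beside them.

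PRE7 starts beside the uridine permease gene FUI1, which fell, with −1.54 in ptc1 and −1.42 in the wild type. RPT5 starts beside RPO31, the gene of the largest RNA polymerase III subunit, which fell by 1.84 in ptc1 and had no value in the wild type. RPN11 starts beside YPI1, a gene of a phosphatase regulator, which rose by 1.61 in ptc1 and by 1.45 in the wild type. PRE7, RPT5 and RPN11 had means within 1.5-fold of mock in both strains. SCL1 starts beside MPO1, which was read on 1 array of each strain, at −0.468 in ptc1 and 0.968 in the wild type. PRE3 starts beside OST1, of the oligosaccharyl transferase, with a mean of −0.36 in ptc1 and −0.11 in the wild type.

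Genes around the proteasome were read from 5 lists of 56 genes, of which 55 were on the arrays. Of the proteasome assembly chaperones 1 of 10 rose and 1 fell in ptc1, where 10.6% of all genes rose and 12.4% fell. In the wild type 0 of 10 rose and 1 fell, where 13.8% of all genes rose and 15% fell. The chaperones that rose numbered 0 without ptc1 array 1, 3 without ptc1 array 2 and 1 without wild-type array 2 in the wild type. Their medians were 0.32 in ptc1 and 0.35 in the wild type. PBA1, of a chaperone pair that builds the alpha ring, had −1.797 and −2.428 in ptc1 and −2.038 and −2.368 in the wild type. Its mean was −2.11 ± 0.45 in ptc1 and −2.20 ± 0.23 in the wild type, or 4.32-fold lower than mock in ptc1 and 4.60-fold in the wild type. ADD66, the gene of its partner, stood at −0.006 ± 0.42 in ptc1 and −0.19 ± 0.025 in the wild type.

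RPN14, a chaperone gene of the ATPase ring, read 1.06 and 0.959 in ptc1 and 0.622 and 0.462 in the wild type. It rose in ptc1, by 1.01 ± 0.071, where both values were above the wild-type ones, and its difference of 0.47 ± 0.13 was not past 1.5-fold. Centred on the array medians its ptc1 mean was 0.9615 and no longer passed 2-fold. The other ATPase ring chaperone genes NAS2 and HSM3 had means of 0.83 ± 0.68 and 0.75 ± 0.66 in ptc1 and 0.91 ± 0.23 and 0.65 ± 0.23 in the wild type, and NAS6 of −0.14 ± 0.088 in ptc1 and −0.024 ± 0.041 in the wild type. TMA17, also known as ADC17, encodes a stress-induced chaperone of the ATPase ring and read 0.518 and 0.209 in ptc1 and 0.855 and 0.499 in the wild type. UMP1, which matures the beta ring, read 0.464 and 0.375 in ptc1 and 0.079 and 0.301 in the wild type.

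Shuttle factors, Cdc48 partners and proteasome-bound enzymes had no gene past 2-fold in either strain, with 10 measured in ptc1 (median 0.31) and 8 in the wild type (median 0.086). Of all genes 10.6% rose and 12.4% fell in ptc1, and 13.8% rose and 15% fell in the wild type. Of the ubiquitin-activating, conjugating, ligating and deubiquitinating enzyme genes 3 of 21 rose in ptc1 (10.6% of all genes), and in the wild type 2 of 17 rose and 1 fell (13.8% and 15% of all genes). Without ptc1 array 1 only 1, UBC8, rose in ptc1, and the wild-type count that rose was 1 without array 1 and 5 without array 2. The conjugating enzyme gene UBC5 had a mean of 1.41 ± 1.03 in ptc1 and 1.43 ± 0.17 in the wild type, and the ligase gene HRD1, of the endoplasmic reticulum, 1.08 ± 0.22 in ptc1 and 1.03 ± 0.083 in the wild type. Centred on the array medians the wild-type mean of HRD1 was 0.967 and no longer passed. UBC8, which acts on gluconeogenic enzymes, rose in ptc1 (1.08 ± 0.82) and stood at 0.98 ± 0.55 in the wild type. PEX4, of the peroxisome, stood at −0.55 ± 0.10 in ptc1 and fell in the wild type (−1.13 ± 0.002).

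Of the regulators of RPN4 and of proteasome abundance 2 of 8 rose in ptc1 and 2 of 7 in the wild type, and these were SLT2 and CUE5 in both. Of all genes 10.6% rose in ptc1 and 13.8% in the wild type, and without ptc1 array 1 the ptc1 count was 1, as CUE5 read 0.538 on ptc1 array 2. SLT2, the kinase gene of the cell wall pathway, also linked to proteasome assembly under TORC1 inhibition, read 1.325 and 1.287 in ptc1 and 2.498 and 2.033 in the wild type. Both ptc1 values lay below both wild-type values, by 0.96 ± 0.33 in the means, just short of the rule. CUE5, of a receptor for autophagy of ubiquitinated proteins, had a mean of 1.11 ± 0.81 in ptc1 and 1.28 ± 0.15 in the wild type. SPG5, of a stationary-phase proteasome regulator, read 0.908 and 0.998 in ptc1 and 0.879 and 0.966 in the wild type, just short of 2-fold on every array.

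The activators upstream of RPN4 were covered in part. YAP1 read 0.143 and 0.609 in ptc1 and −0.098 and −0.314 in the wild type, and PDR1 read 0.464 and 0.002 in ptc1 and 0.228 on wild-type array 1. MUB1, whose product helps to ubiquitinate Rpn4, stood at −0.026 ± 0.012 in ptc1 and −0.076 ± 0.24 in the wild type. PDR3, HSF1 and UBR2 had no value on any array.

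**Figure D4:**
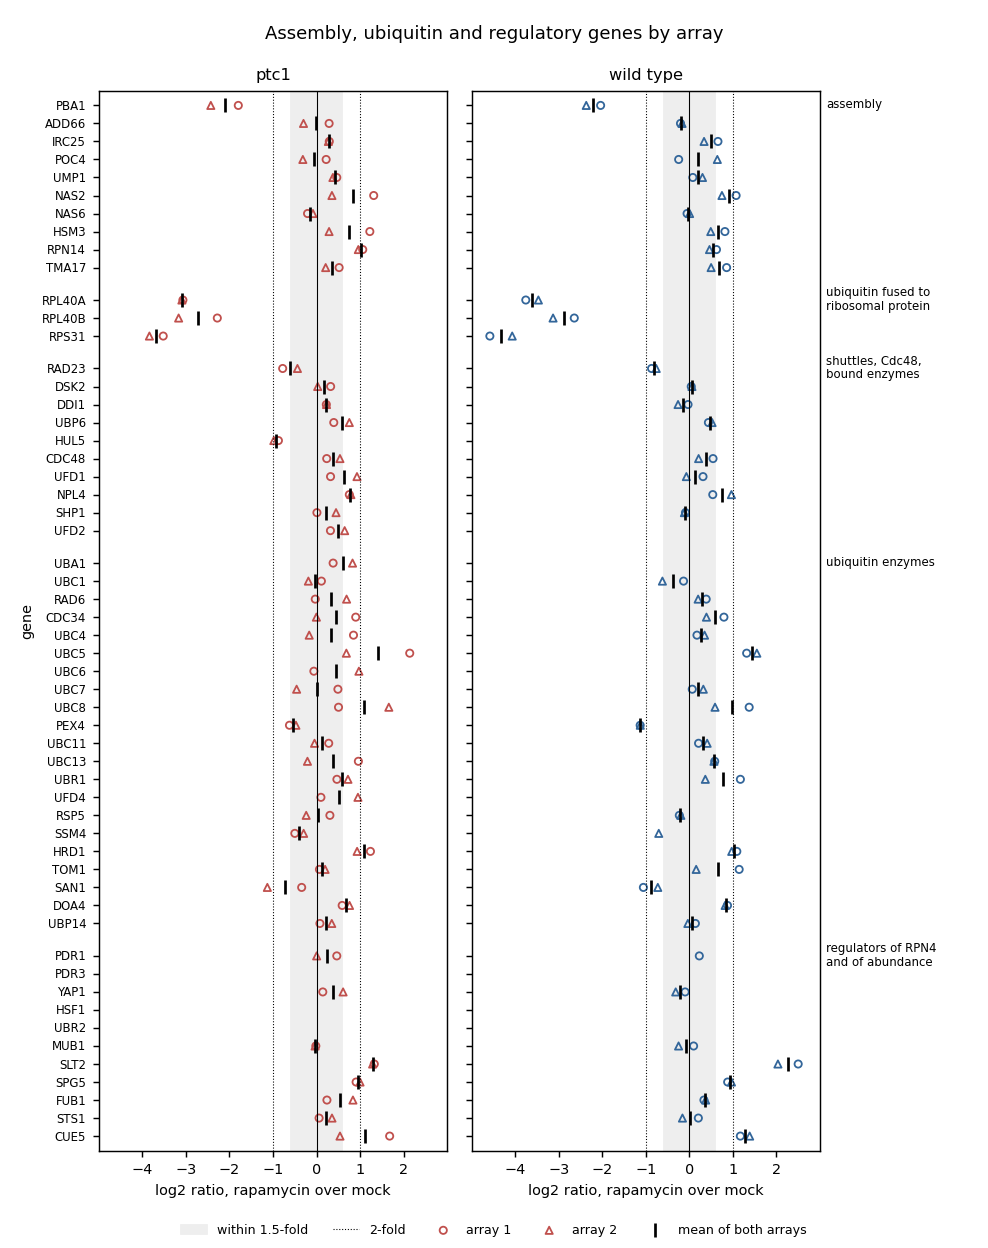
Log2 ratio of rapamycin over mock for 55 genes of proteasome assembly, ubiquitin supply, ubiquitin enzymes and regulation, on the 2 ptc1 arrays (left) and the 2 wild-type arrays (right). Circles and triangles are arrays 1 and 2, black bars their mean, grey the range within 1.5-fold and dotted lines 2-fold. PBA1, RPL40A, RPL40B and RPS31 lie far to the left in both strains, and SLT2 lies to the right.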

How the data were processed

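Per the labels' protocols, 8 µg of total RNA per channel went into indirect Cy dye labelling, and the authors dropped spots under 120 µm in diameter or under 150 intensity units before a ratio-of-medians normalisation. The deposited values are log ratios per open reading frame, taken as log2. Software, background correction and log base are not stated there. Rows were named through the R64 table (5662 of 6212 by locus tag, 52 by a unique synonym, 498 unmatched) and rows of a gene were averaged. Array medians ran from −0.004 to 0.131, so centring would move wild-type array 1 by 0.131. The number of arrays limits the precision. The rule for change was run on all genes with Python 3.11.15, pandas 2.3.3 and numpy 2.4.6, and tested on simulated data. No p-value was calculated, since by the design text the arrays of a strain are a dye swap of 1 RNA pair. All 36 members are named. Of the related lists, genes past 2-fold in either strain are named, with UMP1, TMA17, SPG5, SLT2, RPL40A, RPL40B, RPS31 and the RPN4 regulators; ADD66, NAS2, NAS6, HSM3, and the neighbours of the members, were added after the values were seen. Members and lists were chosen with earlier results of these data known. Planned motif counts in promoters were not run, since promoter sequences were not used here.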

Additional observations from a re-analysis of the deposited data

Results flagged for a closer look

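In 3 of the 45 related genes with a value on all 4 arrays, both ptc1 arrays were positive and both wild-type arrays negative (6.67%). This was so in 0 of 31 proteasome members and in 1.51% of all genes. Genes were flagged for opposite signs of the strains in either direction. The 1.51% counts only the direction found, so for that rule it is a lower bound. YAP1, of an oxidative stress activator, had a difference of 0.582 ± 0.36 (ptc1 minus wild type), the shuttle factor gene DDI1 one of 0.372 ± 0.16 and the Cdc48 partner gene SHP1 one of 0.3295 ± 0.31. SHP1 read 0.008 and 0.447 in ptc1. The value of 0.008 is below the median of ptc1 array 1 over all genes (0.015), so with arrays centred SHP1 would not be flagged. The differences were not tested.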

How the results depend on the processing

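No called member changed sign under any alternative. A call already asks for like signs on both arrays and a mean of at least 1 in size. The unchanged sign therefore follows from the rule and says nothing on stability. With each array centred on its median no member rose in ptc1 (0), and the member medians were 0.096 in ptc1 and −0.027 in the wild type. Scaling the arrays to equal spread gave a ptc1 median of 0.154, taking the first row of a gene 0.153, and leaving out SCL1, PRE3 and UBI4 0.151. At 1.5-fold PRE3 joined SCL1, for 2 members lower in each strain. Leaving out 1 array at a time gave 0 to 1 members higher and 1 lower in ptc1, with medians from 0.138 to 0.146. In the wild type it gave 1 member higher and 1 to 2 lower, with medians from 0.047 to 0.1055, and a median strain difference from 0.022 to 0.0975. UBI4 did not rise without ptc1 array 2, and PRE3 fell without wild-type array 2. Members differing between strains stayed at 0 under the alternatives run. Among the related lists, with an array left out, 1 to 2 ubiquitin enzymes rose in ptc1, and in the wild type 1 to 5. Signal over background was not measured here. Replicate numbers were given in accession order and pair no arrays. Matching arrays across strains by dye leaves each difference of means as it is and changes its spread.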
